A study of Mus musculus with 24 samples.

Results

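The comparison described here sets 4 libraries of RLT Vav Txp cells against 4 libraries of cells in which the leukaemia fusion MLL::ENL (ME) was induced at birth. It used 8 of the 24 libraries in the series. The members were chosen by their titles, which name RLT Vav Txp and E10.5 ME in one group and MLL-ENL and P0 ME in the other. Both groups were mouse bone marrow cells taken at postnatal day 28 (P28). Their labels give the cell type as LSK, while the design text speaks of progenitors sorted as lineage-negative and KIT+, so whether Sca-1 was part of the gate is not settled by these sources. In the first, ME was induced in the embryo at E10.5, and in the second at birth (P0). The labels do not say what "RLT Vav Txp" stands for, so no meaning is given to it here, and they name no strain, sex or driver of the transgene. The groups differed in the day of induction and in what that name denotes, and these cannot be told apart in this comparison. The design text describes a mouse Tet-off model of human MLL::ENL and 4 biological replicates per group, and the series title names MLL3, the product of Kmt2c. Other libraries, used here as reference levels, were P28 marrow LSK cells of wild type (WT) and of ME induced at E10.5 without the name RLT Vav Txp, with 4 libraries each. The RLT Vav Txp titles carry codes (378R, 378RR, 379nt and 416L) and no replicate numbers, so these libraries are called 1 to 4 in that order. The codes 378R and 378RR share a number, and the labels do not say whether these libraries are related, so both were also summed and treated as 1 library. With that sum 2911 genes were called, and of the genes described here Hmga2, Meg3, Ifit1, Emcn, Igkc and Il1b lost their call.

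LSK cells are lineage-negative marrow cells that carry Sca-1 and the stem cell factor receptor KIT. They hold the blood stem cells and the multipotent progenitors that give rise to lymphoid, myeloid, megakaryocytic and erythroid cells. MLL (Kmt2a) is a histone methyltransferase that keeps HOX genes active in these cells. In MLL::ENL its amino terminus is joined to ENL (Mllt1), which recruits the machinery of transcription elongation, and the fusion keeps targets such as the distal Hoxa genes and Meis1 switched on. Infant leukaemia with MLL fusions can start before birth, and the time of induction is one of the variables of the study.

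The values were read counts per gene, shown as CPM, counts scaled to the library total, after trimmed mean of M-values (TMM) normalisation. Total counts ran from 47962965 to 61331788 in the P0-induced ME libraries and from 42572871 to 73483146 in RLT Vav Txp. A principal component analysis of the 8 libraries put 70.1% of the variance on an axis that separated the groups. The next component, with 11.2%, separated RLT Vav Txp library 1 from the other libraries. Variation between replicates was larger in RLT Vav Txp, with a biological coefficient of variation of 73.3% against 27.4% in P0-induced ME. Mitochondrial transcripts took 0.56% of counts in RLT Vav Txp library 1 and 1.14% to 1.61% in the other RLT Vav Txp libraries, against 0.5% to 0.623% in P0-induced ME. Genes were tested with edgeR's quasi-likelihood test with Benjamini-Hochberg adjustment over 23059 genes, and a gene was called at an adjusted p under 0.05. All adjusted p-values below come from that test unless another is named.

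Kit, and Ly6a if Sca-1 was gated, are genes of the sort itself. Kit stood at 1046, 998, 916 and 794 CPM in P0-induced ME libraries 1 to 4 and at 895, 871, 619 and 834 CPM in RLT Vav Txp libraries 1 to 4. Ly6a, which encodes Sca-1, stood at 198 to 241 CPM in P0-induced ME and 179 to 218 CPM in RLT Vav Txp. Neither gene was called (log2 fold change -0.22, SE 0.39, adjusted p = 0.786 for Kit and log2 fold change -0.20, SE 0.20, adjusted p = 0.578 for Ly6a), and the groups overlapped for both. RLT Vav Txp library 3 had the lowest Kit. Under GC and length offsets the fitted Kit value took the opposite sign (0.06), and Ly6a was called lower (log2 fold change -0.79, adjusted p = 0.0121). In bulk RNA, fewer cells of a type and less RNA per cell cannot be told apart.

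Across all genes tested, 2687 differed, which is 11.7% of 23059, with 1556 higher in RLT Vav Txp (6.75%) and 1131 lower (4.9%). The rises reached further than the falls: of 1404 genes called with at least a 2-fold difference, 1029 were higher and 375 lower. Of the 2687 genes, 2312 also had groups that did not overlap. Groups did not overlap, regardless of a call, in 11.6% of all genes on the higher side and 12.6% on the lower side. Over all genes tested the fitted log2 fold changes had a median of 0.09. Under plain library totals it was 0.00 and 48.4% of the calls were higher, against 57.9% with TMM. The number called changed when any 1 library was left out, and it rose only without RLT Vav Txp library 1. It was 3981 without RLT Vav Txp library 1, and 1640, 1321 and 1288 without libraries 2, 3 and 4. It was 1465, 1505, 1402 and 1398 when P0-induced ME libraries 1 to 4 were left out in turn.

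**Figure D1:**
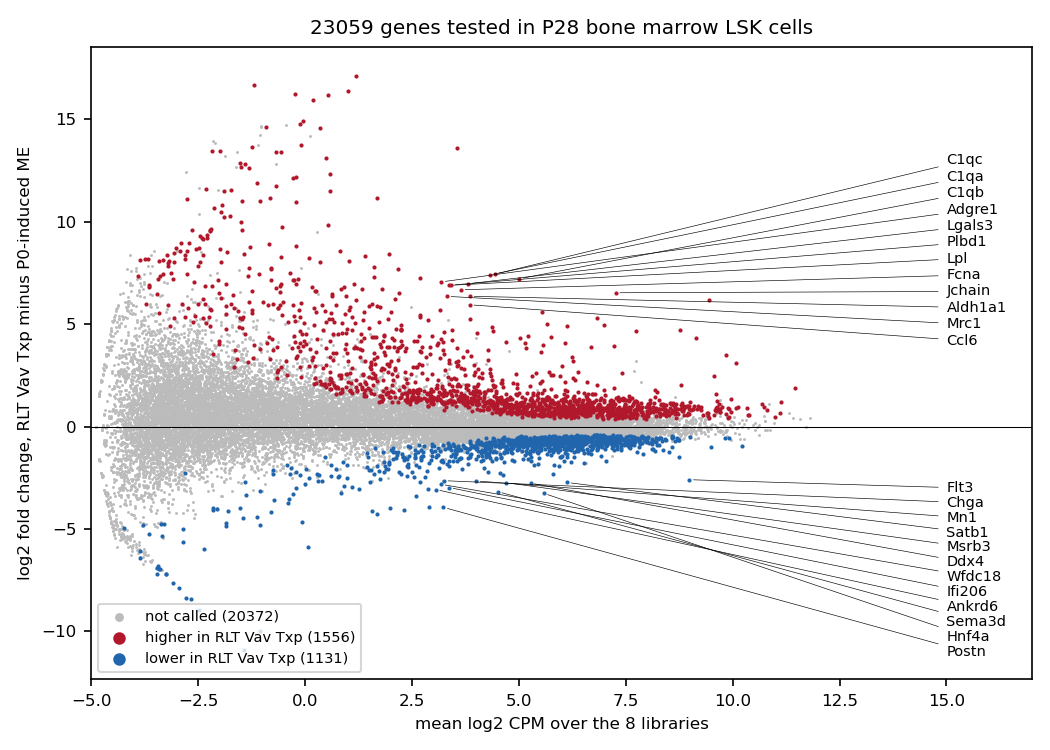
Each point is 1 of 23059 genes, with its mean log2 CPM over the 8 libraries on the x axis and its fitted log2 fold change (RLT Vav Txp minus P0-induced ME) on the y axis. The 1556 genes called higher are red, the 1131 called lower are blue, and the 12 largest rises and 12 largest falls among well-measured genes are labelled.

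Among well-measured genes with groups that did not overlap, the largest falls joined genes of early lymphoid and multipotent progenitors with genes better known outside blood. Flt3, the receptor that marks lymphoid-primed multipotent progenitors, was among them. It stood at 1488, 1186, 1358 and 1361 CPM in P0-induced ME libraries 1 to 4 and at 414, 161, 89.7 and 225 CPM in RLT Vav Txp libraries 1 to 4. The highest RLT Vav Txp library was library 1, and it lay well under the lowest P0-induced ME library. Flt3 was 6.06-fold lower (log2 fold change -2.60, SE 0.33, adjusted p = 2.38e-05), and WT libraries had 1128 to 1260.4 CPM. Satb1, a chromatin organiser of lymphoid progenitors, stood at 203, 153, 237 and 209 CPM in P0-induced ME and 66.3, 17.3, 13.7 and 23.2 CPM in RLT Vav Txp (log2 fold change -2.73, SE 0.42, adjusted p = 0.000264). Here too RLT Vav Txp library 1 was the highest of its group. Mn1, a transcriptional coregulator that can drive leukaemia when overexpressed, stood at 49.3, 45.2, 49.7 and 41.3 CPM against 16.0, 6.89, 4.62 and 1.80 CPM (log2 fold change -2.66, SE 0.45, adjusted p = 0.000472). Its RLT Vav Txp libraries spanned a wide range and none reached the P0-induced ME range.

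Hnf4a, a nuclear receptor best known from liver and gut, stood at 154, 164, 168 and 162 CPM in P0-induced ME and 33.8, 7.12, 10.3 and 16.1 CPM in RLT Vav Txp, a 9.61-fold difference (log2 fold change -3.26, SE 0.41, adjusted p = 2.12e-05). WT libraries had 65.8 to 81.1 CPM, above RLT Vav Txp and below P0-induced ME, and E10.5-induced ME libraries 167 to 239 CPM. Postn, a matricellular protein, had the largest fall of these genes, 41.7, 34.4, 38.2 and 44.8 CPM against 4.15, 2.04, 0.882 and 3.16 CPM (log2 fold change -3.95, SE 0.35, adjusted p = 1.11e-07). RLT Vav Txp library 1 was the highest of its group for both genes. Ddx4, an RNA helicase of germ cells, stood at 102 to 131 CPM against 3.47 to 23.4 CPM, and Msrb3, a methionine sulfoxide reductase, at 66.8 to 72.4 CPM against 5.57 to 16.5 CPM. Both fell, with adjusted p = 2e-05 for Ddx4 and 8.91e-07 for Msrb3, and every RLT Vav Txp library was under every P0-induced ME library. Sema3d, a secreted semaphorin, fell by 3.18 on the log2 scale (SE 0.47, adjusted p = 0.000151), and Ankrd6, a regulator of Wnt signalling, fell by 3.08 (SE 0.55, adjusted p = 0.000843). The interferon-inducible gene Ifi206 fell by 2.98 (adjusted p = 6.57e-05), the secreted WAP-domain protein gene Wfdc18 by 2.82 (adjusted p = 0.000485) and the granin gene Chga by 2.65 (adjusted p = 0.00444). All 12 falls kept their call in each of the 8 fits that left out 1 library.

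Early B-lymphoid genes gave calls in both directions. Of 14 tested, 2 fell (Flt3 and Rag2) and 1 rose (Blnk), against 4.9% and 6.75% of all genes, and the list's median log2 fold change was 0.47. Rag2, a subunit of the V(D)J recombinase, stood at 11.0, 9.51, 13.5 and 13.5 CPM in P0-induced ME and 5.99, 2.80, 3.39 and 0.431 CPM in RLT Vav Txp (log2 fold change -1.91, SE 0.50, adjusted p = 0.0138). Its lowest value was in RLT Vav Txp library 4. Blnk, a B-cell receptor adaptor, stood at 4.29 to 7.33 CPM against 11.1 to 35.0 CPM (adjusted p = 0.0372). The call of Blnk was lost in 7 of 8 fits that each left out 1 library (leave-one-out fits), with an adjusted p up to 0.116, and remained without RLT Vav Txp library 2.

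Targets that MLL fusions are known to keep active were mostly lower in RLT Vav Txp. Of 20 tested, 10 fell and 2 rose, against 4.9% and 6.75% of all genes. Groups did not overlap in 13 on the lower side, against 12.6% of all genes. The median log2 fold change was -0.68 against 0.09 over all genes. In the Hoxa cluster on chromosome 6, Hoxa7, Hoxa9 and Hoxa10 fell. Hoxa3, Hoxa5 and Hoxa6 were not called, and Hoxa11 was not tested. Hoxa9, a homeobox factor of stem cell and leukaemia self-renewal, lies on chromosome 6 from 52223100 to 52231089 (GRCm38). It stood at 177, 179.7, 167 and 159.6 CPM in P0-induced ME and 87.4, 81.6, 74.4 and 59.6 CPM in RLT Vav Txp. Every RLT Vav Txp library was also under the WT range of 115 to 134 CPM. Hoxa9 was 2.25-fold lower (log2 fold change -1.17, SE 0.17, adjusted p = 9.61e-05). Hoxa7, from 52214491 to 52221854, stood at 60.8, 59.5, 53.5 and 61.4 CPM against 27.3, 26.0, 22.6 and 13.3 CPM (log2 fold change -1.40, SE 0.21, adjusted p = 0.000151). Hoxa10, from 52231197 to 52240854, stood at 121, 125, 106 and 99.5 CPM against 50.5, 57.5, 61.0 and 65.1 CPM (log2 fold change -0.95, SE 0.22, adjusted p = 0.00592). For both, the groups did not overlap.

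The HOX partner Meis1 moved less. It stood at 406, 386, 370.4 and 353 CPM in P0-induced ME and 329, 327, 313 and 259 CPM in RLT Vav Txp and was not called (log2 fold change -0.30, SE 0.19, adjusted p = 0.312), although the groups did not overlap. Mef2c, a transcription factor of lymphoid progenitors, stood at 465, 399, 425 and 385 CPM against 276, 179, 165 and 155 CPM (log2 fold change -1.11, SE 0.16, adjusted p = 8.94e-05), with library 1 the highest of its group. Runx2, a runt-domain factor, stood at 90.3 to 99.1 CPM against 26.5 to 51.2 CPM (adjusted p = 0.000151), and Myb, a factor that MLL-driven leukaemia depends on, at 305 to 381 CPM against 154 to 254 CPM (adjusted p = 0.00604). Tcf4, an E protein, fell by 0.82 on the log2 scale (adjusted p = 0.00228) and Lmo2, an adaptor of stem cell transcription complexes, by 0.56 (adjusted p = 0.0204). Mecom, a zinc finger factor of stem cells, was not called (log2 fold change -0.61, adjusted p = 0.0961). The rises were Pbx3, a HOX cofactor, at 7.23 to 10.4 CPM against 14.0 to 34.3 CPM (adjusted p = 0.00655), and the survival gene Bcl2, at 41.8 to 51.3 CPM against 58.2 to 78.4 CPM (adjusted p = 0.0173). The calls of Lmo2 and Bcl2 were each lost in 4 of 8 leave-one-out fits (adjusted p up to 0.106 and 0.0738), for Lmo2 without P0-induced ME library 1 or 2 or RLT Vav Txp library 3 or 4, and for Bcl2 without P0-induced ME library 2, 3 or 4 or RLT Vav Txp library 4. Without RLT Vav Txp libraries 1 and 2, 10 members fell and 0 rose. Hoxa7, Hoxa9, Hoxa10 and Runx2 were named after their values were seen.

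**Figure D2:**
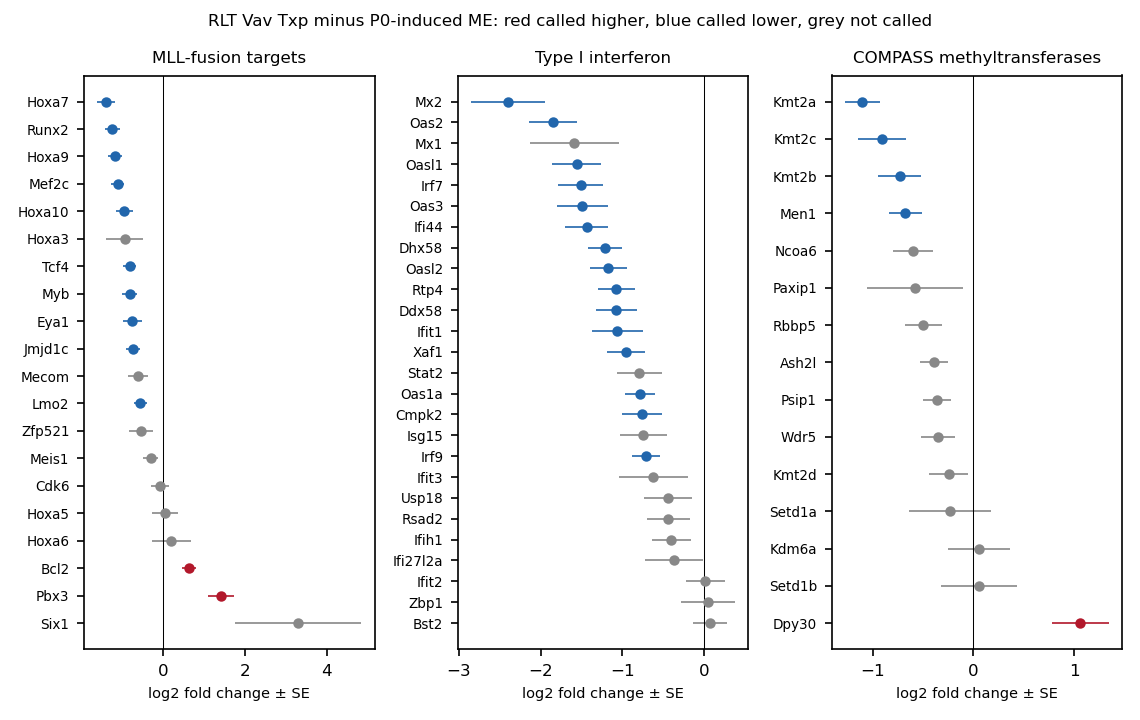
Fitted log2 fold change (x axis, RLT Vav Txp minus P0-induced ME) with its standard error for each tested gene of 3 lists, named on the y axis. Most MLL-fusion targets and type I interferon genes lie left of 0, while Pbx3, Bcl2 and Dpy30 were called higher.

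The mouse gene of MLL itself was also lower, and genes of its complexes gave calls in both directions. Kmt2a stood at 95.1, 93.5, 108 and 95.6 CPM in P0-induced ME and 44.8, 44.2, 39.4 and 53.5 CPM in RLT Vav Txp (log2 fold change -1.11, SE 0.17, adjusted p = 0.000203), beside 36.2 to 46.4 CPM in WT and 53.4 to 58.4 CPM in E10.5-induced ME. RLT Vav Txp libraries 1 to 3 lay within the WT range, and every P0-induced ME library lay above all other P28 libraries. Mllt1 stood at 94.6, 106, 113 and 121 CPM against 97.2, 55.5, 59.1 and 56.2 CPM and was not called (log2 fold change -0.70, SE 0.26, adjusted p = 0.0859), with RLT Vav Txp library 1 inside the P0-induced ME range. The human fusion has no entry of its own in the mouse table. Whether reads of the fusion were counted at the mouse genes Kmt2a and Mllt1 was not tested, and their values are uncertain in that respect. Kmt2c, which encodes MLL3, stood at 53.8, 50.4, 50.9 and 41.0 CPM in P0-induced ME and 33.7, 28.7, 24.6 and 17.1 CPM in RLT Vav Txp (log2 fold change -0.91, SE 0.24, adjusted p = 0.0158). The groups did not overlap, and WT libraries had 24.4 to 34.6 CPM. The call of Kmt2c was lost without RLT Vav Txp library 3 or 4 (adjusted p up to 0.0778) and with the GC and length offsets.

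Of 15 genes of the COMPASS methyltransferase complexes, 4 fell (Kmt2a, Kmt2b, Kmt2c and Men1) and 1 rose (Dpy30), against 4.9% and 6.75% of all genes. The median was -0.40. The summed level of the list was 1304 to 1389 CPM in P0-induced ME and 1023 to 1279 CPM in RLT Vav Txp. It was 1045.5 to 1133 CPM in WT, which overlapped RLT Vav Txp. Men1 encodes menin, which tethers MLL to chromatin, and stood at 143, 149, 147 and 169 CPM against 117, 93.1, 85.0 and 84.9 CPM (log2 fold change -0.68, SE 0.16, adjusted p = 0.00851). Dpy30, a small core subunit, stood at 100.3, 95.8, 100.2 and 98.3 CPM against 119, 228, 241 and 237 CPM (log2 fold change 1.06, SE 0.28, adjusted p = 0.0162). RLT Vav Txp library 1 was close to the P0-induced ME libraries and the other 3 were far above them. Kmt2b, a related methyltransferase, fell by 0.73 on the log2 scale (adjusted p = 0.0268). Without P0-induced ME library 1 or 2 or RLT Vav Txp library 2, 3 or 4 the call of Kmt2b was lost, and without P0-induced ME library 2 or 3 or RLT Vav Txp library 3 or 4 that of Dpy30 was lost. Both were also lost with the offsets for GC content and length. Without RLT Vav Txp library 1, 8 of the COMPASS genes fell, and without library 3, 2 fell.

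Among 16 genes of MLL fusion partners and elongation complexes, 4 fell (Aff3, Cdk9, Ccnt1 and Supt16), against 4.9% of all genes. The median was -0.50. The summed level of the list was 1447 to 1500 CPM in P0-induced ME and 845 to 1229 CPM in RLT Vav Txp. It was 930 to 1088.5 CPM in WT, which overlapped RLT Vav Txp. Supt16, a subunit of the histone chaperone FACT, stood at 154, 171, 177 and 180.0 CPM against 77.7, 43.0, 107 and 43.8 CPM (log2 fold change -1.33, SE 0.33, adjusted p = 0.0119). Aff3, a scaffold of elongation complexes, stood at 115 to 151 CPM against 42.7 to 104 CPM (log2 fold change -1.13, SE 0.30, adjusted p = 0.0159). Cdk9 and Ccnt1, the kinase and cyclin of the elongation factor P-TEFb, fell by 0.48 and 0.55 on the log2 scale (adjusted p = 0.0238 and 0.0392), with RLT Vav Txp library 1 inside the P0-induced ME range for both. The call of Aff3 was lost without RLT Vav Txp library 2, 3 or 4, that of Supt16 without library 4, and those of Cdk9 and Ccnt1 in 5 and 7 of the 8 fits that left out 1 library. The count of falls was 9 without RLT Vav Txp library 1, and 1, 1 and 0 without libraries 2, 3 and 4. It was 3, 2, 3 and 2 without P0-induced ME libraries 1 to 4.

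Stem cell genes did not move together. Of 19 tested, 3 rose (Slamf1, Pdzk1ip1 and Vwf) and 3 fell (Hlf, Cd34 and Meg3), against 6.75% and 4.9% of all genes. The median was 0.16. Hlf, a transcription factor of quiescent stem cells, stood at 788, 744, 690.4 and 657 CPM in P0-induced ME and 297, 234, 227 and 258 CPM in RLT Vav Txp (log2 fold change -1.50, SE 0.18, adjusted p = 5.97e-06). Every RLT Vav Txp library was also below the WT range of 526 to 656 CPM and the E10.5-induced ME range of 521 to 594 CPM. Cd34, a sialomucin that multipotent progenitors gain as they leave the most dormant state, stood at 1072, 954, 1066 and 1132 CPM against 721, 471, 313 and 574 CPM (log2 fold change -1.02, SE 0.20, adjusted p = 0.00207). Slamf1, which encodes the stem cell marker CD150, stood at 6.31, 6.00, 6.22 and 3.79 CPM against 17.9, 44.4, 36.2 and 11.9 CPM (log2 fold change 2.31, SE 0.49, adjusted p = 0.00323), highest in RLT Vav Txp libraries 2 and 3. Vwf, von Willebrand factor, found in platelets and platelet-biased stem cells, stood at 10.0 to 15.6 CPM against 27.8 to 88.3 CPM (adjusted p = 0.0282), and Pdzk1ip1, a stem cell membrane protein, had 47.4 to 70.3 CPM against 61.9 to 153 CPM with overlapping groups (adjusted p = 0.0162). Meg3, an imprinted noncoding RNA, stayed under 1 CPM in all 8 libraries (adjusted p = 0.0402). The calls of Vwf, Pdzk1ip1 and Meg3 were lost in 6, 4 and 7 of the 8 fits that left out 1 library, with adjusted p up to 0.107, 0.0867 and 0.15. That of Vwf remained without RLT Vav Txp library 1 or 3, that of Meg3 without P0-induced ME library 4, and that of Pdzk1ip1 was lost without P0-induced ME library 3 or 4 or RLT Vav Txp library 2 or 3.

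**Figure D3:**
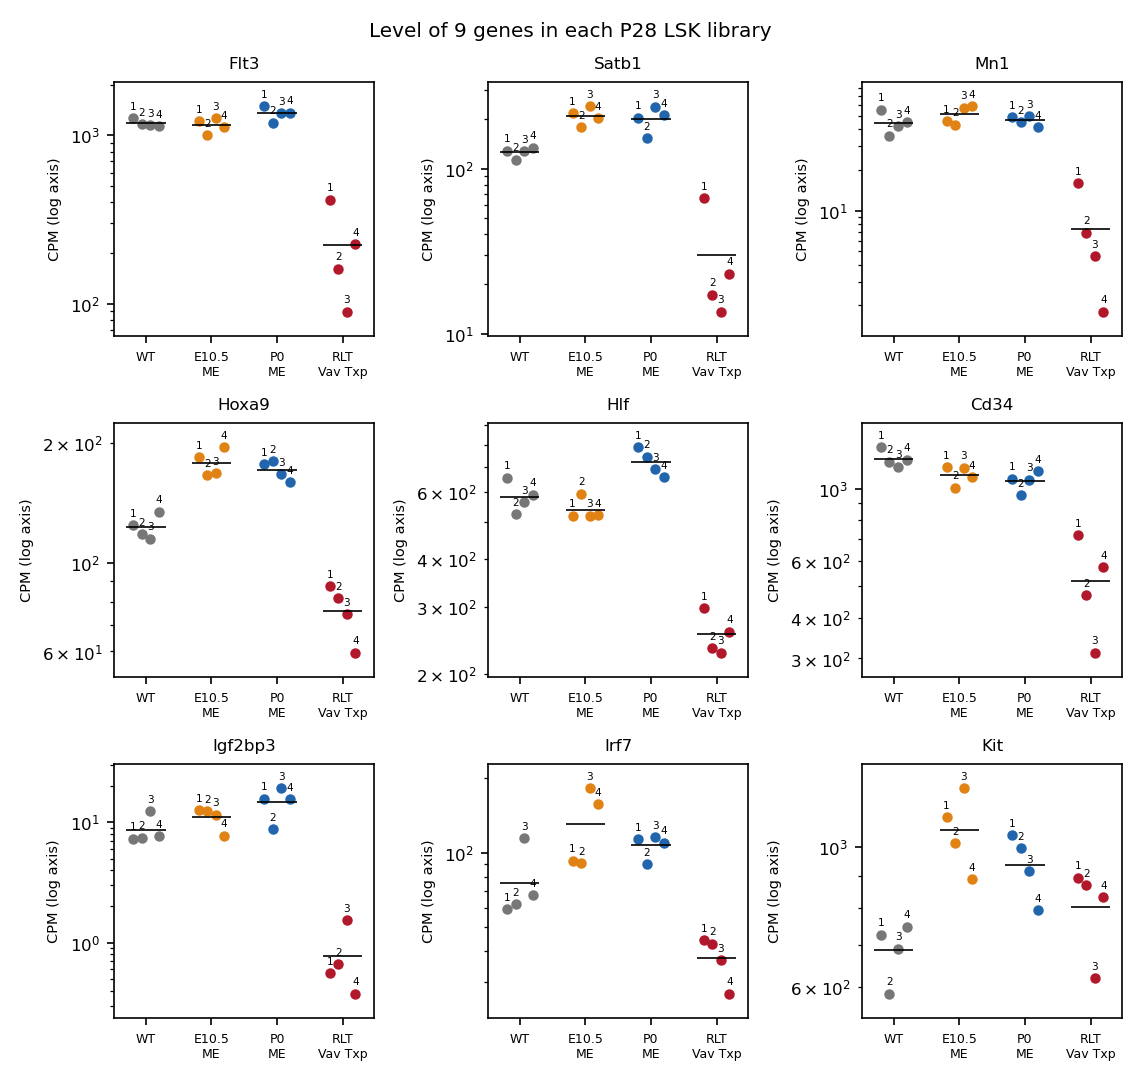
CPM (log y axis) of 9 genes in every P28 LSK library, numbered by replicate within each group, with the group mean as a bar. The 4 RLT Vav Txp libraries lie under all other P28 libraries for Flt3, Satb1, Mn1, Hoxa9, Hlf, Cd34, Igf2bp3 and Irf7, while Kit overlaps between the groups.

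Genes of fetal stem cells were lower where they were called. Of 12 tested, 4 fell (Igf2bp2, Igf2bp3, Hmga2 and Dlk1), against 4.9% of all genes, with a median of -0.39. Igf2bp3, an RNA-binding protein of fetal growth programmes, stood at 15.7, 8.78, 19.2 and 15.5 CPM in P0-induced ME and 0.555, 0.661, 1.53 and 0.378 CPM in RLT Vav Txp, 19.3-fold lower (log2 fold change -4.27, SE 0.33, adjusted p = 1.62e-08). The RLT Vav Txp libraries were also below the WT range of 7.32 to 12.4 CPM and the E10.5-induced ME range of 7.73 to 12.6 CPM. Igf2bp2, its paralogue, stood at 14.1, 21.2, 13.1 and 11.2 CPM against 2.50, 4.50, 4.51 and 9.64 CPM (log2 fold change -1.50, SE 0.35, adjusted p = 0.008). Dlk1, an imprinted Notch-family ligand, stood at 1.97 to 2.36 CPM against 0.180 to 0.650 CPM (log2 fold change -2.07, SE 0.35, adjusted p = 0.000377). Hmga2, an architectural chromatin protein of fetal stem cells, stood at 35.5, 35.1, 36.3 and 29.2 CPM against 7.41, 16.1, 19.3 and 26.1 CPM (adjusted p = 0.0443), lowest in RLT Vav Txp library 1. The call of Hmga2 was lost in 7 of 8 leave-one-out fits (adjusted p up to 0.105) and remained without RLT Vav Txp library 4. That of Igf2bp2 was lost when RLT Vav Txp libraries 1 and 2 were left out together.

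Type I interferon response genes were lower where they were called. The pathway runs from the interferon receptor to a DNA element, the interferon-stimulated response element, before antiviral genes. Promoters are shown here because the called members moved in the same direction. The pattern searched was GAAA, then any 2 bases, then GAAA, on both strands in the 250 bases before the RefSeq gene starts, with overlapping matches allowed. Of 26 tested members, 18 matched the promoter table and 8 of these (44.4%) held the pattern, against 2.98% of 32851 promoters in the table. It was found in 3 of the 11 matched members that fell and in 5 of the 7 that were not called. The last 120 bases before the start are printed 5′ to 3′ on the gene's strand, from RefSeq on GRCm38.p6, with the matches in capitals. Those of Ifit1 are on the opposite strand, and overlapping matches in Oas1a and Isg15 run together. They are for 3 genes that fell, Ifit1 (plus strand, chr19:34640769-34640888), Oas1a (minus strand, chr5:120907526-120907645) and Oas3 (minus strand, chr5:120777660-120777779), and for Isg15 (minus strand, chr4:156200819-156200938), which was not called.
Ifit1: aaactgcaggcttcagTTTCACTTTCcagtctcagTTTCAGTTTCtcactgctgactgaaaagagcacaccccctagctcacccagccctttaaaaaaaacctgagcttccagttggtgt
Oas1a: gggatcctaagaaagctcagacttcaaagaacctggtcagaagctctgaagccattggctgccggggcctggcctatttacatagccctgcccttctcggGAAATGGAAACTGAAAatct
Oas3: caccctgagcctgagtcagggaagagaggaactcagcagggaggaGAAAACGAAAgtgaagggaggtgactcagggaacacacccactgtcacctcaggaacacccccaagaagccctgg
Isg15: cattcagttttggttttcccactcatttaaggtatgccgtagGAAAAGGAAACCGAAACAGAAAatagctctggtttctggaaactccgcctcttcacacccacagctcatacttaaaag

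Of 26 interferon genes tested, 15 fell, against 4.9% of all genes. Groups did not overlap on the lower side in 18, against 12.6% of all genes, and the median log2 fold change was -0.88. Irf7, the master factor of interferon production, stood at 114, 90.1, 116 and 110.0 CPM in P0-induced ME and 44.4, 42.9, 36.9 and 27.0 CPM in RLT Vav Txp (log2 fold change -1.51, SE 0.27, adjusted p = 0.000919). The WT libraries had 59.2 to 114 CPM, above every RLT Vav Txp library. Oas2, which senses double-stranded RNA, stood at 18.5, 14.7, 24.5 and 19.9 CPM against 4.00, 6.14, 6.78 and 4.60 CPM (log2 fold change -1.85, SE 0.29, adjusted p = 0.000211). The GTPase gene Mx2 had the largest fall of the list, 13.6, 10.46, 13.9 and 12.5 CPM against 1.30, 2.48, 4.41 and 1.40 CPM (log2 fold change -2.40, SE 0.45, adjusted p = 0.00122). The called members with the most reads fell less. These were Irf9, the DNA-binding subunit of the interferon-activated complex (179.8 to 229.9 CPM against 115 to 142, adjusted p = 0.00851), Ddx58, the RNA sensor RIG-I (152 to 184 against 69.8 to 101, adjusted p = 0.00622), Rtp4, an interferon-induced chaperone (124 to 166 against 64.6 to 76.6, adjusted p = 0.00308), and Oasl2 (125 to 175 against 63.6 to 74.6, adjusted p = 0.00144).

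Of the genes whose promoters are printed, Oas3 stood at 66.3, 56.5, 73.4 and 65.2 CPM against 27.7, 19.9, 22.6 and 22.7 CPM (log2 fold change -1.49, SE 0.31, adjusted p = 0.00308) and Oas1a, its relative, at 45.9 to 58.9 CPM against 20.5 to 37.4 CPM (log2 fold change -0.79, SE 0.18, adjusted p = 0.00604). Ifit1, a binder of foreign RNA, stood at 55.3, 43.8, 61.4 and 54.4 CPM against 17.1, 26.3, 36.1 and 23.2 CPM (log2 fold change -1.06, SE 0.31, adjusted p = 0.0269), and its call was lost in 6 of 8 leave-one-out fits (adjusted p up to 0.0833), remaining without P0-induced ME library 2 or RLT Vav Txp library 3. Isg15, a ubiquitin-like modifier, had 17.6 to 26.6 CPM against 10.3 to 20.8 CPM with overlapping groups and was not called (adjusted p = 0.0986). The count of falls was 13 to 14 when 1 library was left out and 14 without RLT Vav Txp libraries 1 and 2. MHC class I genes, which interferon also induces, gave 0 calls among 14 with edgeR (median 0.33). At an unadjusted p under 0.05, 4 were higher and 1 lower. DESeq2 called 3 higher and 0 lower, and limma voom 9 higher and 1 lower. Irf7, Oas2, Mx2, Oas1a, Oas3, Ifit1 and Isg15 were named after their values were seen.

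A list of 9 genes went in both directions. It was chosen because its members rose with ME in these samples, so its direction is not independent evidence. Of its members 4 fell (Postn, Chga, Ndnf and Slc18a1) and 2 rose (Pcdh7 and Ehd3), against 4.9% and 6.75% of all genes. Ndnf, a secreted neuronal factor, stood at 18.9, 17.6, 22.6 and 19.2 CPM in P0-induced ME and 1.02, 1.56, 2.35 and 0.0719 CPM in RLT Vav Txp (log2 fold change -3.98, SE 0.52, adjusted p = 2.34e-05). Slc18a1, a vesicular monoamine transporter, stood at 29.1, 18.8, 30.1 and 33.9 CPM against 5.05, 0.771, 0.557 and 0.234 CPM (log2 fold change -4.06, SE 0.66, adjusted p = 0.000429), and library 1 was the highest of RLT Vav Txp. Pcdh7, a protocadherin, went the other way with 2.78, 1.80, 2.69 and 2.09 CPM against 18.3, 19.8, 27.1 and 5.86 CPM (log2 fold change 2.92, SE 0.37, adjusted p = 1.77e-05). E10.5-induced ME libraries had 24.0 to 46.4 CPM of Pcdh7 and WT libraries 1.76 to 4.44 CPM. Ehd3, an endocytic recycling protein, stood at 6.00 to 10.7 CPM against 18.5 to 42.2 CPM (log2 fold change 1.78, SE 0.35, adjusted p = 0.0017), with 28.1 to 41.8 CPM in E10.5-induced ME and 3.10 to 5.24 CPM in WT. For Pcdh7 and Ehd3, RLT Vav Txp and E10.5-induced ME were both above P0-induced ME and WT. The genes of the list that fell did not show this order. E10.5-induced ME libraries had 49.0 to 94.4 CPM of Postn, 41.0 to 89.4 CPM of Chga, 16.4 to 28.2 CPM of Ndnf and 15.4 to 22.4 CPM of Slc18a1, above every RLT Vav Txp library in each gene.

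Most of the 12 named rises, which were taken among well-measured genes with antigen receptor genes left out, are genes known from macrophages. The 3 chains of complement C1q, which macrophages secrete, are encoded side by side on chromosome 4: C1qb from 136880129 to 136886187, C1qc from 136889804 to 136893065 and C1qa from 136895917 to 136898803 (GRCm38). C1qa stood at 2.26, 1.56, 1.55 and 1.22 CPM in P0-induced ME and 478, 105, 287 and 253 CPM in RLT Vav Txp, 170.0-fold higher (log2 fold change 7.41, SE 1.10, adjusted p = 0.00032). C1qb stood at 5.17, 2.45, 1.74 and 2.23 CPM against 678, 174, 478 and 394 CPM (log2 fold change 7.22, SE 1.09, adjusted p = 0.000378), and C1qc at 3.24, 1.43, 1.27 and 1.32 CPM against 511, 115, 367 and 274 CPM (log2 fold change 7.45, SE 1.18, adjusted p = 0.000611). For all 3 chains RLT Vav Txp library 1 was the highest and library 2 the lowest, and library 2 was still above every library of the other P28 groups. Adgre1, the macrophage surface receptor F4/80, stood at 0.891, 1.31, 0.485 and 0.803 CPM against 182, 29.6, 136 and 119 CPM (log2 fold change 7.06, SE 1.18, adjusted p = 0.000919) with the same order of libraries. The other named rises were Lgals3 (galectin-3), Plbd1 (a phospholipase B-like protein), Lpl (lipoprotein lipase), Fcna (ficolin A), Mrc1 (the mannose receptor), Ccl6 (a chemokine), Aldh1a1 (a retinal dehydrogenase) and Jchain. Their fitted values ran from 5.95 for Ccl6 to 6.97 for Lgals3 on the log2 scale, with adjusted p from 1.36e-07 for Lgals3 to 0.00914 for Jchain. All 12 rises kept their call in each fit that left out 1 library.

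Of 22 macrophage genes tested, 20 rose, against 6.75% of all genes, and Itgam and Tlr4 were not called. The median was 4.58 (the same with genes that had no P0-induced ME counts set at their lower bound). The summed level of the 22 genes was 518, 452, 489 and 489 CPM in P0-induced ME libraries 1 to 4. In RLT Vav Txp libraries 1 to 4 it was 7623, 2279.5, 8589 and 5865 CPM. WT libraries had 735 to 905 CPM. Marco and Vsig4, scavenger and complement receptors of resident macrophages, had no counts in any P0-induced ME library. Lyz2, lysozyme, stood at 309, 273, 283 and 290.5 CPM against 3608, 1217, 5121 and 3176 CPM (log2 fold change 3.50, SE 0.63, adjusted p = 0.00151). Csf1r, the receptor for the macrophage growth factor, stood at 11.6, 8.64, 18.5 and 13.9 CPM against 343, 62.9, 242 and 188 CPM (log2 fold change 3.99, SE 0.55, adjusted p = 0.000114), and Cd68, a lysosomal membrane protein, at 23.8 to 25.0 CPM against 75.4 to 262 CPM (log2 fold change 2.95, SE 0.42, adjusted p = 9.66e-05). Against 6.75% of all genes, 10 of 11 genes of erythroblastic island macrophages and iron recycling rose. They included Hmox1, haem oxygenase, with 13.3, 12.5, 5.42 and 7.21 CPM against 479, 122, 329 and 322 CPM (log2 fold change 5.03, SE 0.78, adjusted p = 0.000437), and Slc40a1, the iron exporter ferroportin, with 7.52 to 19.1 CPM against 143 to 609 CPM (log2 fold change 4.92, SE 0.79, adjusted p = 0.000611). Both had RLT Vav Txp library 1 highest and library 2 lowest.

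Antigen presentation genes of MHC class II rose with them. Of 13 genes of dendritic cells and MHC class II, 10 rose, against 6.75% of all genes (median 2.45). Cd74, the invariant chain, stood at 138, 106, 119 and 154 CPM in P0-induced ME and 2798, 1513, 3180.2 and 2729 CPM in RLT Vav Txp (log2 fold change 4.31, SE 0.64, adjusted p = 0.00029). H2-Ab1, a class II beta chain, stood at 37.9 to 51.5 CPM against 766 to 1335 CPM (log2 fold change 4.64, SE 0.76, adjusted p = 0.000706) and H2-Aa, an alpha chain, at 18.7 to 28.7 CPM against 534 to 908 CPM (log2 fold change 4.96, SE 1.03, adjusted p = 0.00512). The count of rises in the list was 6 without any 1 of the P0-induced ME libraries, and 9, 8, 7 and 7 without RLT Vav Txp libraries 1 to 4.

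Genes of mature myeloid cells varied more between libraries, and 10 of those tested were not called. Of 19 neutrophil and monocyte granule genes, 9 rose (median 3.69), and groups did not overlap in 17, against 6.75% and 11.6% of all genes. The count was 1 when any P0-induced ME library or RLT Vav Txp library 3 or 4 was left out, 5 without RLT Vav Txp library 2 and 9 without library 1. It was 3 with offsets for GC content and length and 17 with DESeq2. S100a8, a calcium-binding alarmin of neutrophils, stood at 24.0, 20.8, 14.1 and 3.93 CPM in P0-induced ME and 83.9, 115, 328 and 778 CPM in RLT Vav Txp (adjusted p = 0.0378). Its call was lost in 7 of 8 leave-one-out fits (adjusted p up to 0.129), and remained without RLT Vav Txp library 1. Elane, neutrophil elastase, stood at 135, 111, 38.4 and 44.6 CPM against 425, 566, 393 and 1686 CPM and was not called (adjusted p = 0.113), with RLT Vav Txp library 4 the highest. Mpo, myeloperoxidase, had 438 to 714 CPM against 564 to 2423 CPM with overlapping groups (adjusted p = 0.167).

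Of 12 mast cell, basophil and eosinophil genes, 2 rose, against 6.75% of all genes. Fcer1a, the alpha chain of the IgE receptor, stood at 0.0356, 0.262, 0 and 0 CPM in P0-induced ME and 9.60, 13.4, 3.72 and 17.6 CPM in RLT Vav Txp (log2 fold change 7.17, SE 1.56, adjusted p = 0.00531). Mcpt8, a basophil protease, had 0.683 to 4.62 CPM against 18.5 to 44.8 CPM (log2 fold change 3.89, SE 0.98, adjusted p = 0.014), and its call was lost without P0-induced ME library 3 or 4 (adjusted p up to 0.0607). Of 12 megakaryocyte and platelet genes, 5 rose (Pf4, Itga2b, Vwf, Selp and Itgb3), against 6.75% of all genes, with a median of 1.56. Selp, P-selectin of platelet granules, stood at 2.60, 3.69, 6.28 and 4.60 CPM against 102, 127, 102 and 98.0 CPM (log2 fold change 4.64, SE 0.48, adjusted p = 1.36e-06), and Pf4, platelet factor 4, at 10.55, 10.53, 6.96 and 8.01 CPM against 93.1, 152, 115 and 240.4 CPM (log2 fold change 4.06, SE 0.49, adjusted p = 1.57e-05). In both, the lowest RLT Vav Txp library was far above the highest P0-induced ME library. Itga2b and Itgb3, the subunits of the platelet fibrinogen receptor, rose by 1.98 and 1.98 on the log2 scale (adjusted p = 0.00166 and 0.00851).

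Of 19 erythroid genes, 7 rose, against 6.75% of all genes (median 1.48). Hbb-bs, an adult beta-globin, stood at 36.3, 30.3, 51.3 and 41.4 CPM in P0-induced ME and 429.9, 407, 879 and 727 CPM in RLT Vav Txp (log2 fold change 3.94, SE 0.97, adjusted p = 0.0136), with WT libraries between them at 119 to 175 CPM. Hba-a1, an alpha-globin with a near-identical copy, had 19.7 to 32.5 CPM against 289.6 to 608 CPM (adjusted p = 0.0224). The call of Hbb-bs was lost without P0-induced ME library 2 (adjusted p 0.0511) and that of Hba-a1 without any P0-induced ME library or RLT Vav Txp library 3 or 4 (up to 0.074). The list's count of rises was 2, 3, 1 and 1 without P0-induced ME libraries 1 to 4, and 7, 5, 3 and 4 without RLT Vav Txp libraries 1 to 4. Over the 24104 to 24343 genes tested in these fits, 770, 785, 727 and 787 were called higher without P0-induced ME libraries 1 to 4. Without RLT Vav Txp libraries 1 to 4 there were 2063, 1055, 825 and 779.

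Antibody genes were measured at high levels in RLT Vav Txp. Jchain, which joins IgA and IgM units, stood at 41.6, 4.30, 26.2 and 9.54 CPM in P0-induced ME and 2303, 544, 2309.6 and 2413 CPM in RLT Vav Txp (log2 fold change 6.53, SE 1.49, adjusted p = 0.00914). Igkc, the kappa constant region, stood at 199.5, 29.0, 122 and 52.4 CPM against 10987, 2061, 8094 and 8345 CPM (adjusted p = 0.0499), and its call was lost without any 1 of the 8 libraries (adjusted p up to 0.135). Igha, the IgA constant region, was at or under 0.219 CPM in each P0-induced ME library and at 3966, 192, 1329 and 887 CPM in RLT Vav Txp (log2 fold change 13.59, SE 2.34, adjusted p = 0.00125). Library 2 was the lowest in all 3 genes. Mzb1, a chaperone of antibody secretion, stood at 0.0938 to 0.161 CPM against 0.427 to 3.62 CPM (log2 fold change 4.09, SE 0.80, adjusted p = 0.00173), while Sdc1, the plasma cell surface proteoglycan CD138, was lower in RLT Vav Txp, 47.8 to 84.9 CPM against 11.9 to 45.3 CPM (log2 fold change -1.22, SE 0.30, adjusted p = 0.00933). Igha, Igkc, Mzb1 and Sdc1 were named after their values were seen.

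Other cell lists gave few calls. Of 12 T and NK cell genes 1 rose (Cd4), and of 9 hepatocyte genes 1 rose (Afp). Of 11 endothelial and stromal genes 1 rose (Cxcl12) and 2 fell (Emcn and Pdgfrb). Over all genes tested, 6.75% were called higher and 4.9% lower. All 12 T and NK cell genes had a fitted value above 0, with a median of 1.87. It was 1.67 with 2 genes near the floor set at their bound. These genes summed to 228 to 352 CPM in RLT Vav Txp and 151 to 171 CPM in P0-induced ME. In the endothelial and stromal list 9 genes were above 0 and 2 below, with a median of 1.48. Its sums overlapped, at 80.3 to 235 CPM against 89.0 to 104 CPM. In the hepatocyte list 7 genes had a fitted value below 0, and none was called lower. The list's median log2 fold change was -2.29, or -0.32 with 4 genes near the floor in 1 group set at their bound. The rise of Cd4 was lost in 5 of 8 leave-one-out fits, that of Afp in 4, and no endothelial or stromal gene fell without P0-induced ME library 4 or RLT Vav Txp library 2. Cxcl12, the chemokine that keeps stem cells in their niche, stood at 0.926, 11.8, 0.531 and 0.903 CPM in P0-induced ME and 54.1, 32.2, 22.3 and 131 CPM in RLT Vav Txp (log2 fold change 4.08, SE 0.89, adjusted p = 0.00574). P0-induced ME library 2 was the highest of its group. The part that RNA of macrophages, granulocytes, antibody-producing, erythroid and megakaryocytic cells had in the other differences was not tested. The summed level of Kit and Ly6a was 809 to 1089 CPM in RLT Vav Txp and 1027 to 1287 CPM in P0-induced ME. RLT Vav Txp library 2 had the lowest macrophage sum of its group (2279.5 CPM), still above the 452 to 518 CPM of P0-induced ME. Its Flt3, Satb1 and Hlf levels lay within the range of the other RLT Vav Txp libraries. Whether these levels go with the macrophage sum was not tested. With members of the 11 lists of other cell types and immunoglobulin genes removed before the fit, 2537 genes were called, 1531 higher and 1006 lower. That fit tested 22762 genes and kept every gene outside these lists, so it does not measure the part of RNA from other cells.

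**Figure D4:**
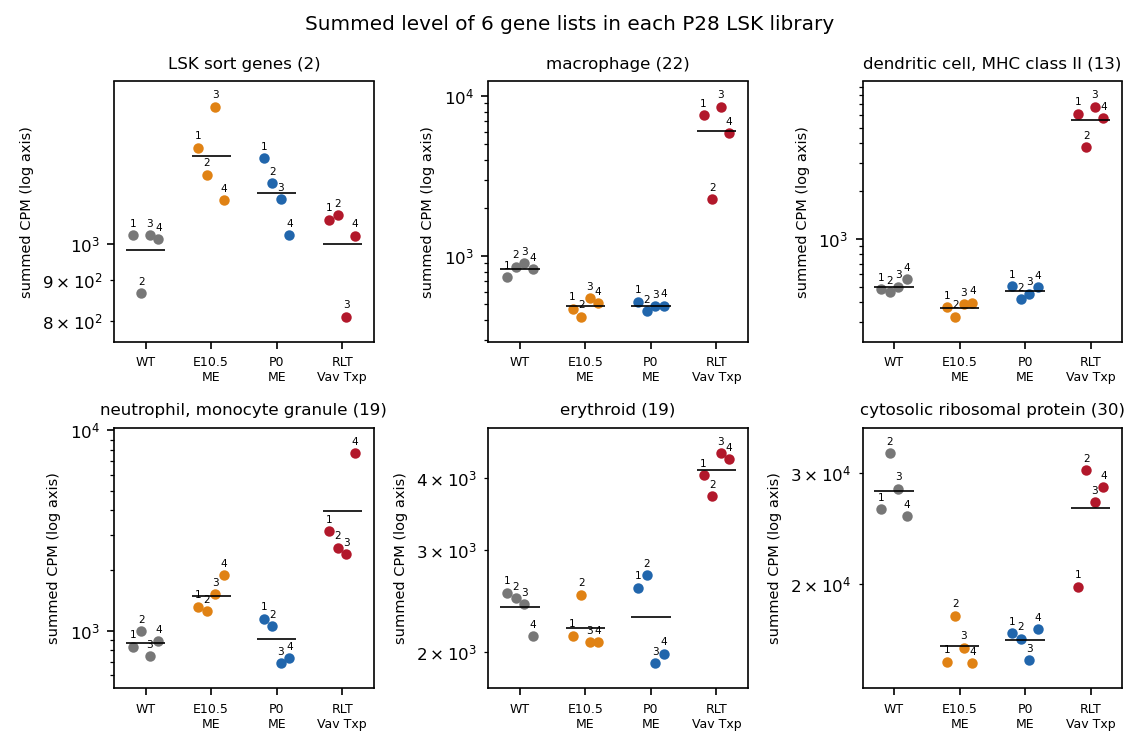
Summed CPM (log y axis) of 6 gene lists in every P28 LSK library, numbered by replicate, with the group mean as a bar and the number of tested members in parentheses. Macrophage genes summed to 452 to 518 CPM in P0-induced ME and to 2280 CPM or more in RLT Vav Txp, and RLT Vav Txp library 1 lies nearest to P0-induced ME for ribosomal protein genes.

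Ribosomal protein and respiratory chain genes, which encode the translation machinery and the mitochondrial electron transport chain, gave calls that were each in the higher direction. Against 6.75% of all genes, 23 of 30 cytosolic ribosomal protein genes rose (median 0.77). Their summed level was 16687, 16364, 15152 and 16936 CPM in P0-induced ME and 19790.0, 30302, 26923 and 28419 CPM in RLT Vav Txp, and 25620.0 to 32206 CPM in WT. RLT Vav Txp library 1 was between P0-induced ME and the other RLT Vav Txp libraries. Rps3, of the small subunit, stood at 821, 789, 771 and 831 CPM against 937, 1717, 1643 and 1812 CPM (log2 fold change 0.93, SE 0.22, adjusted p = 0.00874), and Rpl3, of the large subunit, at 1138, 1069, 1027 and 1149 CPM against 1385, 1995, 1647 and 1540.2 CPM (log2 fold change 0.58, SE 0.14, adjusted p = 0.00851). The call of Rpl3 was lost without P0-induced ME library 3 (adjusted p 0.0532). Of 21 respiratory chain genes, 10 rose, against 6.75% of all genes (median 0.78). Cox4i1, a subunit of cytochrome c oxidase, stood at 356, 363, 345 and 357 CPM against 480.4, 777, 725 and 876 CPM (log2 fold change 1.01, SE 0.21, adjusted p = 0.00333), and Ndufa4 at 309.5 to 336 CPM against 324 to 805 CPM with overlapping groups (adjusted p = 0.0367). The call of Ndufa4 was lost in 7 of 8 leave-one-out fits (adjusted p up to 0.17), and remained without RLT Vav Txp library 1.

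Transcript length moved with these differences. Base composition (GC content) and length were also entered in the fit. Among genes whose log2 CPM averaged 1 or more, the median log2 fold change was 0.32 in the shortest of 3 equal length classes, -0.13 in the middle and -0.31 in the longest. With these properties as offsets in the fit, 9 ribosomal protein and 6 respiratory chain genes rose, with medians of 0.29 and 0.25. In that fit 1096 of all 23022 genes tested were called higher and 912 lower. Under the same offsets 9 MLL-fusion targets and 16 interferon genes fell, and 20 macrophage genes rose. The count of ribosomal protein rises was 14, 14, 9 and 14 without P0-induced ME libraries 1 to 4, and 26, 14, 13 and 10 without RLT Vav Txp libraries 1 to 4. For the respiratory chain these counts were 6, 8, 6 and 8, and 11, 8, 6 and 6. Over the 24104 to 24343 genes tested in these fits, 727 to 2063 were called higher.

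Cell cycle genes gave few calls. Of 20 S phase genes 2 rose (Tyms and Gins2), and of 18 mitosis genes 2 rose (Ccnb1 and Cdk1), shares near the 6.75% of all genes. Tyms, thymidylate synthase, stood at 80.8, 89.9, 102 and 111 CPM against 149, 179.9, 151 and 178 CPM (log2 fold change 0.78, SE 0.24, adjusted p = 0.0323), and Cdk1, the mitotic kinase, at 98.5, 98.2, 116 and 132 CPM against 170.2, 212, 171 and 217 CPM (log2 fold change 0.79, SE 0.21, adjusted p = 0.0174). Their calls were lost in 7 and 5 of the 8 fits that left out 1 library (adjusted p up to 0.115 and 0.0704). That of Tyms remained without RLT Vav Txp library 1, and that of Cdk1 was lost without P0-induced ME library 1, 2 or 3 or RLT Vav Txp library 2 or 4. Without RLT Vav Txp library 1, 3 S phase genes rose and 6 fell, and 2 mitosis genes rose and 6 fell. Among 14 cell cycle inhibitors and p53 targets, Cdkn2c, the inhibitor p18, was higher at 15.6 to 25.5 CPM against 54.2 to 72.9 CPM (log2 fold change 1.62, SE 0.32, adjusted p = 0.00198). Phlda3, a p53 target that restrains AKT, was lower at 17.4 to 21.0 CPM against 5.36 to 9.25 CPM (log2 fold change -1.50, SE 0.22, adjusted p = 8.32e-05). For both, the groups did not overlap.

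**Figure D5:**
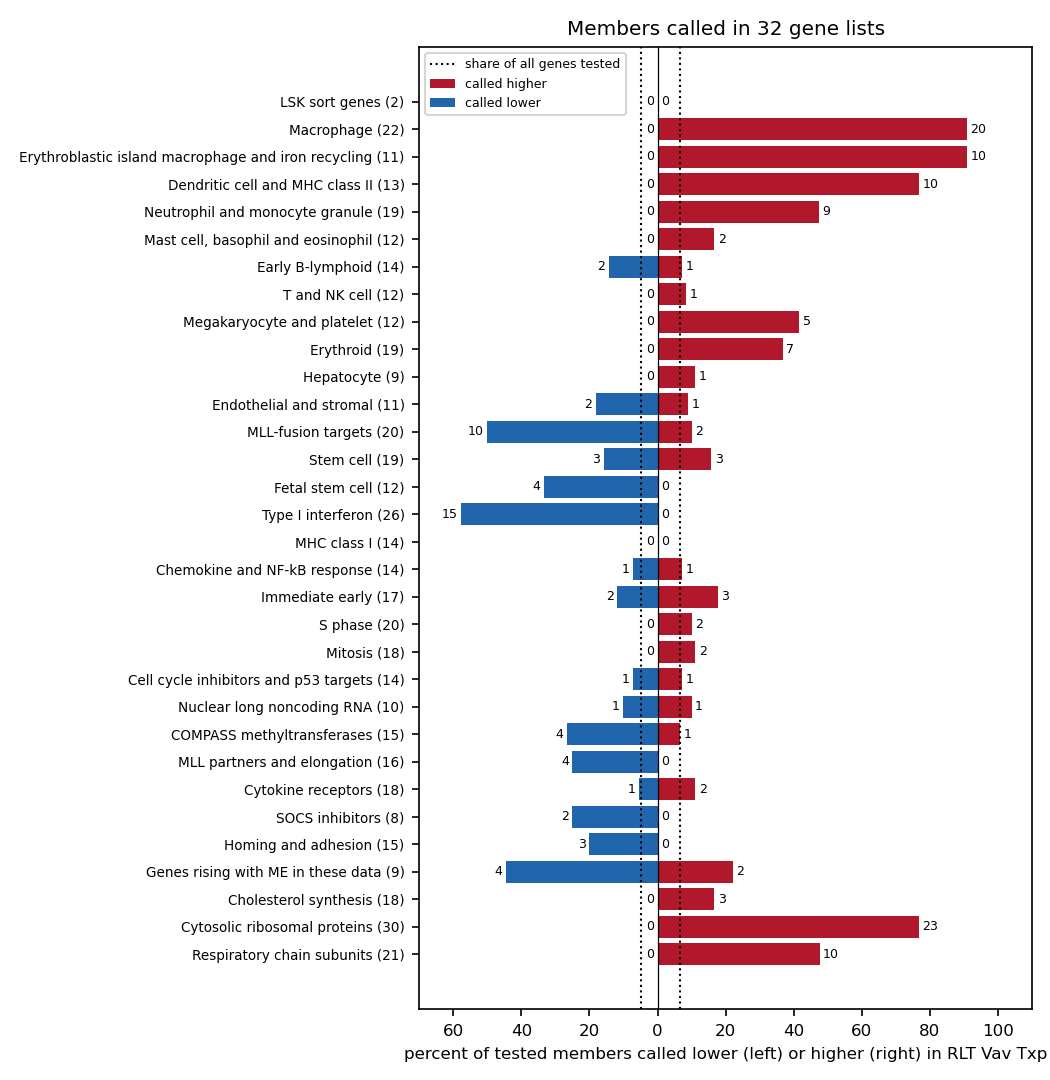
Percent of tested members called lower (left) or higher (right) in RLT Vav Txp for each of 32 gene lists, with the number called beside each bar and the number tested in parentheses. Dotted lines mark the share of all genes tested, 6.75% higher and 4.9% lower. Macrophage, iron recycling, MHC class II and ribosomal protein lists reach furthest to the right, and interferon and MLL-fusion target lists furthest to the left.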

How the data were processed

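The 24 libraries were bulk RNA-seq of sorted mouse progenitors in 6 groups of 4, labelled LSK and described in the design text as sorted on lineage markers and KIT. RNA was taken with an RNeasy kit and libraries were made with a Clontech kit written "SMRTr", per the labels' protocols. The authors deposited raw read counts per gene. The submitters' processing notes name STAR 2.7.9a, featureCounts 2.0.3 of Subread and the build GRCm38. The strand setting of the counting is not given in the sources used here, so overlapping and antisense genes, and near-identical copies such as Hba-a1 and Hba-a2, may share reads. Of 55774 entries, 287 repeats with identical counts were dropped. Positions are from GENCODE M21.

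Counts were tested with edgeR 4.0.16 in R 4.3.3 (TMM scaling, filterByExpr with a minimum count of 10, robust quasi-likelihood fit of 6 group means to all 24 libraries, 18 residual degrees of freedom). The contrast was RLT Vav Txp minus P0-induced ME, with Benjamini-Hochberg adjustment over 23059 genes. Scripts were tested on simulated data. CPM values are TMM-scaled, with the mean of log2 values taken with a prior count of 2. Alternatives were RLE scaling, plain totals, DESeq2 1.42.0, limma 3.58.1 voom with quality weights, other filters and sample sets, offsets for GC content and length, 378R and 378RR summed, no sex-linked markers, each library left out, and a threshold of 0.01. After the data were seen, 3 more were added: RLT Vav Txp libraries 1 and 2 left out, only genes with at least 1 CPM in WT, and no genes of other cell types or immunoglobulins. The labels describe biological replicates. The p-values of the main fit rest on a spread estimated from all 24 libraries, not only from the groups compared. Among the others, the biological coefficient of variation was 101.6% in WT taken at birth and 83.2% in E10.5-induced ME taken at birth.

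Named genes were the 12 largest rises and 12 largest falls among called genes whose groups did not overlap and whose log2 CPM averaged 3 or more, leaving out gene models, pseudogenes, antigen receptor genes and sex-linked markers. From each list they were its members among those 24, the 6 others with the highest mean log2 CPM, and the called members where 5 or fewer were called. Kit, Ly6a, Kmt2a, Mllt1 and Kmt2c were checks. Other genes in the text, or those named to show which members were called, were chosen after their values were seen. The members and lists were chosen with earlier results of these data known. A member of the interferon list is not reported here and was left out of the list's counts. Promoters came from a RefSeq table on GRCm38.p6. Figures were drawn with matplotlib 3.10.9.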

Additional observations from a re-analysis of the deposited data

Results flagged for a closer look

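Of 242 sets of 4 libraries checked, which were the named genes in each group, 19 had a library whose gap to the nearest of the others exceeded Dixon's 95% critical value for 4 samples. Chance alone flags about 1 in 20. RLT Vav Txp had 9 of them and P0-induced ME 10.

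In RLT Vav Txp, library 1 stood apart in 5 genes. In each case below the first value is the library that stood apart, the second its nearest neighbour and the third the other end of the group. It was high for Mllt1 (97.2 CPM against 59.1 and 55.5), for Kmt2b (17.2 CPM against 12.8 and 12.0), for Slc18a1 (5.05 CPM against 0.771 and 0.234) and for Selplg (237 CPM against 148 and 137). It was low for Dpy30 (119 CPM against 228 and 241). For these genes library 1 lay nearer to P0-induced ME than the other RLT Vav Txp libraries did. Library 2 was low for Jchain (544 CPM against 2303 and 2413) and high for Selp (127 CPM against 102 and 98.0). Library 4 was low for Dlk1 (0.180 CPM against 0.578 and 0.650) and high for Elane (1686 CPM against 566 and 393).

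In P0-induced ME, library 1 was high for C1qc (3.24 CPM against 1.43 and 1.27), for Fcna (2.78 CPM against 1.02 and 0.735) and for Atf3 (0.0178 CPM against 0 and 0). The Atf3 value was a single read or close to it. Library 2 was high for Cxcl12 (11.8 CPM against 0.926 and 0.531) and Fcer1a (0.262 CPM against 0.0356 and 0). Library 3 was high for Kmt2a (108 CPM against 95.6 and 93.5), Sema3d (93.6 CPM against 63.7 and 59.1) and Il1b (0.125 CPM against 0 and 0). Library 4 was low for Myb (305 CPM against 369 and 381) and Slamf1 (3.79 CPM against 6.00 and 6.31). In none of these 10 genes did the library that stood apart reach the RLT Vav Txp range.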

How the results depend on the processing

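The number of genes called depended on how the spread was estimated and on the libraries included. With limma voom and quality weights 7401 genes were called, 3851 higher and 3550 lower. With only the 8 libraries compared there were 5153, 3039 higher and 2114 lower, and with only the 16 P28 libraries 5928, 2851 higher and 3077 lower. At an adjusted p under 0.01, 936 remained, 548 higher and 388 lower. DESeq2 called 2507 genes higher, and with no filter on low counts 726 were lower. Leaving out 1 library gave 1288 to 3981 genes, 727 to 2063 higher and 496 to 1918 lower. The other settings stayed within 1.5 times the reported counts. Of 121 genes described, 113 were called. Of these, 80 kept their call in all 8 fits that left out 1 library. In every other setting that gave the gene an adjusted p, 85 kept their call, and 76 did so in both kinds of fit. Such values came from up to 14 other settings per gene, and from 11 for Igha. The threshold of 0.01 was not among these settings. With offsets for GC content and length 99 of the 113 kept their call, and without RLT Vav Txp libraries 1 and 2 there were 100. Among these genes 1 fitted value changed sign: Kit, which was not called, had a log2 fold change of 0.062 with the GC and length offsets. The cause of these shifts was not tested. With total counts of at least 42572871 in each of the 8 libraries, a floor of 3 counts lies under 0.1 CPM, and precision is lowest for genes near it. No paired analysis was possible because the RLT Vav Txp titles carry no replicate numbers that could match those of P0-induced ME.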

Other observations

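Immediate early genes, which cells switch on within minutes of a stimulus or of tissue handling, gave calls in both directions. Of 17 tested, 3 were called higher (Fos, Jun and Atf3) and 2 lower (Zfp36 and Btg2), against 6.75% and 4.9% of all genes, with a median of 0.18. Leaving out 1 library gave 2 to 3 higher and 0 to 2 lower, with 0 lower without P0-induced ME library 1 or 4 or RLT Vav Txp library 3 or 4. Fos, a subunit of the AP-1 factor, stood at 1.71, 0.875, 1.09 and 0.642 CPM in P0-induced ME and 5.29, 4.21, 7.41 and 8.66 CPM in RLT Vav Txp (log2 fold change 2.56, SE 0.54, adjusted p = 0.00351). Its partner Jun stood at 8.50, 9.95, 7.94 and 8.51 CPM against 13.4, 25.6, 34.1 and 20.3 CPM (log2 fold change 1.42, SE 0.40, adjusted p = 0.0216), lowest in RLT Vav Txp library 1. Atf3, a stress factor, had at most 0.0178 CPM in P0-induced ME and 2.60, 1.14, 13.0 and 3.40 CPM in RLT Vav Txp, with a log2 fold change of at least 6.56 against a floor of 3 counts over the group. Zfp36, which destabilises inflammatory messages, stood at 66.5, 61.7, 61.0 and 64.3 CPM against 40.1, 41.6, 38.0 and 39.4 CPM (log2 fold change -0.67, SE 0.19, adjusted p = 0.0203). The calls of Jun and Zfp36 were lost in 6 and 4 of 8 leave-one-out fits (adjusted p up to 0.0917 and 0.0669), for Jun all but those without RLT Vav Txp library 1 or 4, and for Zfp36 those without P0-induced ME library 1 or 4 or RLT Vav Txp library 3 or 4.

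Genes of adhesion and homing were lower where they were called. Of 15 tested, 3 fell (Itgal, Selplg and Cd44), against 4.9% of all genes. The count was 3 without RLT Vav Txp library 1, 1 without library 3 and 2 without any other of the 8 libraries. Itgal, the alpha chain of the integrin LFA-1, stood at 110.2, 98.6, 137 and 127 CPM against 77.8, 16.2, 16.3 and 55.7 CPM (log2 fold change -1.51, SE 0.40, adjusted p = 0.0162), highest in RLT Vav Txp library 1, and its call was lost without RLT Vav Txp library 3 (adjusted p = 0.0538). Selplg, the ligand of the selectins, stood at 262, 246, 294 and 309 CPM against 237, 137, 137 and 148 CPM (log2 fold change -0.76, SE 0.17, adjusted p = 0.00457). Of 8 SOCS genes, inhibitors of cytokine signalling, 2 fell (Socs5 and Socs6), against 4.9% of all genes. The count was 2 without RLT Vav Txp library 1, 0 without library 4 and 1 without any other of the 8 libraries. Socs5 stood at 101, 109, 105 and 104 CPM against 62.3, 51.3, 58.4 and 36.7 CPM (adjusted p = 0.0103), and its call was lost without RLT Vav Txp library 4 (adjusted p = 0.0569). Of 18 cytokine receptor genes, 1 fell (Flt3) and 2 rose (Csf1r and Epor), against 4.9% and 6.75% of all genes. Epor, the erythropoietin receptor, stood at 8.62, 11.5, 3.67 and 3.25 CPM against 29.6, 26.8, 16.4 and 18.0 CPM (log2 fold change 1.75, SE 0.50, adjusted p = 0.0231), and its call was lost without P0-induced ME library 3 or 4 or RLT Vav Txp library 2 (adjusted p up to 0.0955).

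Of 18 cholesterol synthesis genes, 3 rose (Idi1, Fdps and Msmo1), against 6.75% of all genes, with a median of 0.27. Idi1, which makes the isoprenoid building block of sterols, stood at 11.8, 14.5, 15.7 and 11.7 CPM in P0-induced ME and 25.8, 34.4, 35.0 and 33.2 CPM in RLT Vav Txp (log2 fold change 1.26, SE 0.31, adjusted p = 0.011), and the groups did not overlap. The call of Fdps was lost in 5 of 8 leave-one-out fits (adjusted p up to 0.0862) and that of Msmo1 without P0-induced ME library 4 or RLT Vav Txp library 3 (adjusted p up to 0.0574). Among 14 chemokine and NF-kB response genes, Ccl4, a macrophage and lymphocyte chemokine, was lower, 29.1, 25.3, 28.3 and 23.7 CPM against 8.09, 14.6, 16.3 and 9.82 CPM (log2 fold change -1.13, SE 0.26, adjusted p = 0.00698). Il1b, the inflammatory cytokine, had at most 0.125 CPM in P0-induced ME and 0.881 to 2.09 CPM in RLT Vav Txp (adjusted p = 0.0491), and its call was lost in 7 of 8 leave-one-out fits, remaining without P0-induced ME library 3. Among 10 nuclear long noncoding RNAs, Kcnq1ot1 was called higher and Meg3 lower, against 6.75% and 4.9% of all genes. The number of this list called higher was 5 without RLT Vav Txp library 1, 1 without library 2 or 3, and 0 without library 4 or any 1 of the P0-induced ME libraries.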
